A study of Mus musculus with 9 samples.

Results

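The data described here compare a high with a low dose of cytokine early after stimulation, in splenic CD8+ T cells of female C57BL/6 mice that were 6 weeks old. The 4 libraries, of 9 in the series, were chosen by dose and time alone. At 500 nM for 4 h there was 1 library with interleukin-2 (IL-2) and 1 with interleukin-15 (IL-15), and at 1 nM for 4 h there was again 1 with IL-2 and 1 with IL-15. The same 4 treatments at 24 h and 1 library of untreated cells were used only to set the 4 h values in context. The labels give no time in culture for the untreated cells. In values set against them, cytokine and time in culture therefore cannot be told apart. Each library was made from RNA of 3 identically treated samples pooled before sequencing, so no treatment had a second library. The 2 cytokines therefore served as the 2 libraries on each side, and the p-values measure the spread left between libraries by the model, not between mice. In all, 13479 of 20418 gene symbols had enough reads to be tested. Each pair of values below gives the IL-2 library and then the IL-15 library, in CPM, the gene's counts as a share of the library's total after TMM scaling.

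IL-2 and IL-15 are growth factors for T cells. Both bind the β chain of the IL-2 receptor (Il2rb) and the common γ chain (Il2rg), and each has an α chain of its own (Il2ra, Il15ra) that raises affinity, so that cells with few α chains bind a low dose poorly and a high dose through β and γ. The receptor-bound kinases JAK1 and JAK3 phosphorylate STAT5, which enters the nucleus and turns on genes that include its own inhibitors, CIS and the SOCS proteins. PI3K and ERK signals from the same receptor feed growth. In CD8+ T cells a strong signal is known to raise granzymes, perforin and interferon-γ, and to lower genes of the naive and memory state.

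The 4 libraries held 27158143 to 35524598 counts over 1 transcript per gene. The cells carried T cell transcripts: Cd8a measured 744 and 786 CPM at 500 nM, against 393 and 434 CPM at 1 nM and 903 CPM untreated, and Cd4 was at most 3.13 CPM in the 4 libraries. The 14 listed T cell identity genes summed to 5318 and 5849 CPM at 500 nM, against 5183 and 5306 CPM at 1 nM. Summed B cell, myeloid, NK cell, dendritic cell and erythroid markers were lower at 500 nM, and summed CD4+ and regulatory T cell markers were higher. The 14 B cell markers summed to 1188 and 1272 CPM at 500 nM, against 1534 and 1796 CPM at 1 nM, and the 12 myeloid markers summed to 228 and 161 CPM at 500 nM, against 309 and 293 CPM at 1 nM. The untreated library was above all 4, with 2034 CPM of B cell markers and 2137 CPM of myeloid markers, and stood farthest apart in the myeloid ones. It was also above all 4 in NK cell markers (186 CPM) and in dendritic cell markers (116 CPM, against at most 49.65 CPM). The same held for erythroid markers (177 CPM, against at most 107.7 CPM). In CD4+ and regulatory T cell markers it was below all 4, at 42.4 CPM. The 5 NK cell markers summed to 33.2 and 25.1 CPM at 500 nM, against 49.95 and 52.8 CPM at 1 nM. Among them Ncr1, a marker of NK cells, had 0 counts in both 500 nM libraries but was not called. The 5 CD4+ and regulatory T cell markers summed to 67.7 and 64.1 CPM at 500 nM, against 52.0 and 61.5 CPM at 1 nM. Of them 3 had a log2 difference above 0, and the median was 0.10, with -0.07 in the IL-15 pair. By the test below 3 of 14 B cell markers (0 to 2 with one 4 h library left out) and 1 of 5 NK cell markers (0 or 1) were called lower, against 4.63% of all genes. Of the 12 myeloid, 7 dendritic, 5 CD4+ and regulatory T cell and 6 erythroid markers 0 were called by edgeR, DESeq2 or limma-voom, and 4, 1, 1 and 0 of them had an unadjusted p under 0.05. The part of these cells in the results below was not tested, and in bulk RNA fewer cells of a type and less RNA per cell cannot be told apart.

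At 4 h, 731 genes were higher at 500 nM than at 1 nM (5.42% of those tested) and 624 were lower (4.63%), at an adjusted p under 0.05 in edgeR's quasi-likelihood test with the same direction required in both cytokine pairs. That requirement removed no gene. The median gene differed by -0.02 on the log2 scale. Among the genes called higher, the median fitted log2 difference was 1.39, with 1.24 in the IL-2 pair and 1.45 in the IL-15 pair, and 85 were at least 8-fold higher. Among those called lower the median was -1.15, and 26 were at least 8-fold lower. Without a test, 481 genes were at least 2-fold higher in both pairs with at least 20 counts in the higher library (3.57%) and 403 at least 2-fold lower (2.99%). The count of calls rested on single 4 h libraries: it was 567 in place of 1355 without the IL-15 500 nM library, 690 without the IL-2 1 nM library and 831 without the IL-15 1 nM library. In what follows a call lost on leaving a library out is named with that library. Called genes were chosen by their dose difference. Dose groups that do not overlap in them describe the values and add no separate support, and such genes were not counted over all those tested.

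**Figure D1:**
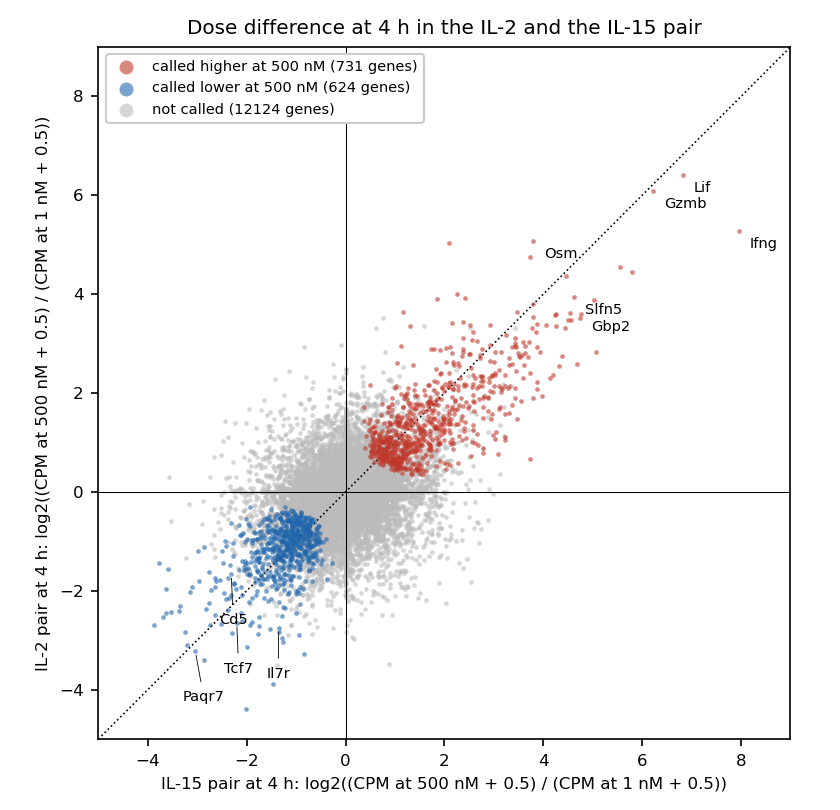
Each point is 1 of 13479 tested genes, with the log2 ratio of 500 nM to 1 nM (CPM + 0.5) in the IL-15 pair across and in the IL-2 pair up; red points were called higher (731), blue points lower (624). The called genes lie in the upper right and lower left quadrants, Ifng, Lif and Gzmb are farthest to the upper right, and the dotted line marks equal ratios in both pairs.

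Secreted mediators and cytotoxic granule proteins stood among the 15 largest rises of genes with at least 50 counts a library on average. Ifng, interferon-γ (chromosome 10), had 93.1 and 331 CPM at 500 nM, against 1.91 and 0.83 CPM at 1 nM and 1.001 CPM untreated. Its log2 difference was 7.73 ± 0.96 (SE, adjusted p = 0.00037). Both 500 nM libraries were far above the other 3, and the IL-15 one was the highest; the call was lost under limma-voom. Lif, leukaemia inhibitory factor (chromosome 11), had 489 and 559.7 CPM at 500 nM, against 5.27 and 4.45 CPM at 1 nM and 0.549 CPM untreated, which made it 112-fold higher (log2 6.81 ± 0.52, adjusted p = 2.7e-05). Gzmb, the serine protease granzyme B (chromosome 14), had 933 and 1408 CPM at 500 nM, against 13.3 and 18.3 CPM at 1 nM and 8.88 CPM untreated (log2 6.23 ± 0.83, adjusted p = 0.00055). Gzmc, another granzyme, had 10.97 and 20.6 CPM at 500 nM, against 0.0538 and 0.453 CPM at 1 nM and 0 CPM untreated. The granzymes on chromosome 14 are similar in sequence, so their counts are uncertain where reads fit more than 1 of them. Gadd45g, a stress-inducible growth-arrest gene, had 99.7 and 160.4 CPM at 500 nM, against 3.79 and 2.94 CPM at 1 nM and 2.91 CPM untreated. Mlkl, the effector of necroptosis, had 10.9 and 30.3 CPM at 500 nM, against 1.1 and 0.415 CPM at 1 nM and 0.517 CPM untreated. In these 6 genes untreated cells were near or below the 1 nM libraries. Dna2, a nuclease and helicase of DNA replication, had 16.4 and 23.3 CPM at 500 nM, against 0.646 and 0.226 CPM at 1 nM (log2 5.64 ± 0.64), unlike most replication genes below. The water and glycerol channel Aqp9 had 7.51 and 4.43 CPM at 500 nM, against 0 and 0.528 CPM at 1 nM and 3.78 CPM untreated, so that untreated cells lay between the doses. In these 8 genes the groups of 500 nM and 1 nM libraries did not overlap.

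Some of the largest rises came from very few reads. Dhh, the hedgehog ligand desert hedgehog, had 325 counts over both 500 nM libraries and 0 over both 1 nM libraries, at least 96.9-fold higher against a floor of 3 counts over the group. Itih5, which encodes a hyaluronan-associated matrix protein, had 313 counts over both 500 nM libraries, against 2 over both 1 nM libraries, a ratio of 140 with a 95% exact counting interval of 38.4 to 1161. Intervals and floors here cover counting error only, since PCR copies are not separate molecules. The call of Dhh was lost without either 1 nM library and without the IL-15 500 nM library, and those of Batf2 (log2 4.84 ± 1.25) and Prss16 (log2 4.46 ± 1.02) without the IL-15 1 nM or the IL-15 500 nM library.

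Levels per transcript length (RPKM, reads per kilobase of exon scaled to the library) put other genes first. Vim, the intermediate filament vimentin, had 1892 and 1289.5 RPKM at 500 nM, against 185 and 238 RPKM at 1 nM (log2 2.86 ± 0.30 in CPM, adjusted p = 0.00014). Lta, lymphotoxin-α, had 1085 and 767 RPKM at 500 nM, against 42.2 and 55.6 RPKM at 1 nM. Samhd1, a nucleotide hydrolase that restricts viruses, had 572 and 855 RPKM at 500 nM, against 136 and 169.8 RPKM at 1 nM. Each of the 3 was called in every alternative run. Among the abundant genes that fell, Rgs10, a regulator of G protein signalling, had 65.1 and 66.6 RPKM at 500 nM, against 262 and 279 RPKM at 1 nM (log2 -2.03 ± 0.18 in CPM). Fth1, ferritin heavy chain, had 2018 and 1783 RPKM at 500 nM, against 3153 and 3420.3 RPKM at 1 nM (log2 -0.78 ± 0.19 in CPM, adjusted p = 0.019), a call lost without the IL-15 1 nM, the IL-15 500 nM or the IL-15 500 nM 24 h library.

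Among the 15 largest falls, Paqr7, a membrane progestin receptor, had 6.18 and 6.68 CPM at 500 nM, against 61.8 and 58.5 CPM at 1 nM and 86.3 CPM untreated (log2 -3.24 ± 0.24, adjusted p = 2e-05), 9.42-fold lower. Both 1 nM libraries were within 2-fold of the untreated one. Thra, the thyroid hormone receptor α, had 1.51 and 1.11 CPM at 500 nM, against 20.9 and 11.2 CPM at 1 nM and 17.9 CPM untreated (log2 -3.63 ± 0.50). Qrfp, a neuropeptide precursor, had 1.18 and 0.525 CPM at 500 nM, against 11.5 and 9.21 CPM at 1 nM and 10.1 CPM untreated. Art4, of the ADP-ribosyltransferase family, had 2.45 and 0.496 CPM at 500 nM, against 18.6 and 14.04 CPM at 1 nM and 20.8 CPM untreated, so that its 1 nM and untreated cells were again alike. Ankrd13d, a ubiquitin-binding endocytic adaptor, had 1.61 and 0.584 CPM at 500 nM, against 10.9 and 12.9 CPM at 1 nM and 9.14 CPM untreated. In these 5 genes the 500 nM libraries lay below all 3 others, and each kept its call whichever library was left out. The other 10 were of low level, at most 17.7 CPM in either 1 nM library, and each lost its call without 2 or more of the 4 h libraries: Zfp2, Rhod, Cd300lb, Cd300e, Actn2, Aqp11, Mblac1, Rtn4rl1, Acoxl and Sox4, with log2 differences of -5.48 to -3.01. The receptors Cd300lb and Cd300e are known from myeloid cells, whose markers summed to less at 500 nM, with 0 of 12 called (above). The part of myeloid cells in the falls of these receptors was not tested.

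The inhibitors that STAT5 induces rose. Of 12 tested genes of cytokine feedback, 4 were called higher (against 5.42% of all genes) and 0 lower, with a median log2 difference of 0.43. Socs1, which blocks JAK kinases, had 146 and 114 CPM at 500 nM, against 20.6 and 19.4 CPM at 1 nM and 19.2 CPM untreated (log2 2.69 ± 0.20, adjusted p = 2e-05), so that both 1 nM libraries were level with untreated cells. Cish, which encodes CIS, had 1626 and 1192 CPM at 500 nM, against 152 and 268 CPM at 1 nM and 39.6 CPM untreated (log2 2.65 ± 0.48, adjusted p = 0.0036), with both 1 nM libraries above untreated cells and both 500 nM libraries above those. Socs3, the inhibitor best known downstream of IL-6, had 578 and 497 CPM at 500 nM, against 169 and 257 CPM at 1 nM and 263 CPM untreated (log2 1.34 ± 0.24), with untreated cells as high as the higher 1 nM library. Socs2 had 35.6 and 41.1 CPM at 500 nM, against 19.9 and 17.7 CPM at 1 nM and 12.6 CPM untreated (log2 1.05 ± 0.28, adjusted p = 0.033). In all 4 genes the dose groups did not overlap. Without the IL-2 1 nM library 1 of the 12 was called, Socs1, and Socs2 was also lost without the IL-15 1 nM or the IL-15 500 nM library and under limma-voom.

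Among 11 tested JAK and STAT genes 4 were called higher (36.4%, against 5.42% of all genes) and 1 lower (9.09%, against 4.63%). Stat2 and Stat3, which carry interferon and IL-6 family signals, rose. Stat2 had 439 and 611 CPM at 500 nM, against 95.7 and 101.4 CPM at 1 nM and 64.9 CPM untreated (log2 2.41 ± 0.32, adjusted p = 0.00055). Stat3 had 561 and 623 CPM at 500 nM, against 194 and 197 CPM at 1 nM and 208 CPM untreated (log2 1.60 ± 0.20). The kinase Jak3, which sits on the common γ chain, had 248 and 291 CPM at 500 nM, against 78.8 and 83.4 CPM at 1 nM and 278 CPM untreated (log2 1.73 ± 0.18), with 500 nM cells close to untreated ones and 1 nM cells lower than both. Stat5b, one of the pair of STAT5 genes, was called lower, with 245 and 277 CPM at 500 nM, against 477 and 366 CPM at 1 nM and 179 CPM untreated (log2 -0.70 ± 0.19, adjusted p = 0.04), and both doses were above untreated cells. Stat5a, the other, had 136 and 164 CPM at 500 nM, against 119.8 and 109 CPM at 1 nM and was not called (adjusted p = 0.24). Jak1 had 331 and 392.2 CPM at 500 nM, against 603 and 462 CPM at 1 nM (adjusted p = 0.1) and was called lower by DESeq2 and without the IL-15 1 nM library. The Stat5b call was lost without the IL-2 1 nM library or any of the 4 libraries at 500 nM and in the fits on the 4 h libraries alone.

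**Figure D2:**
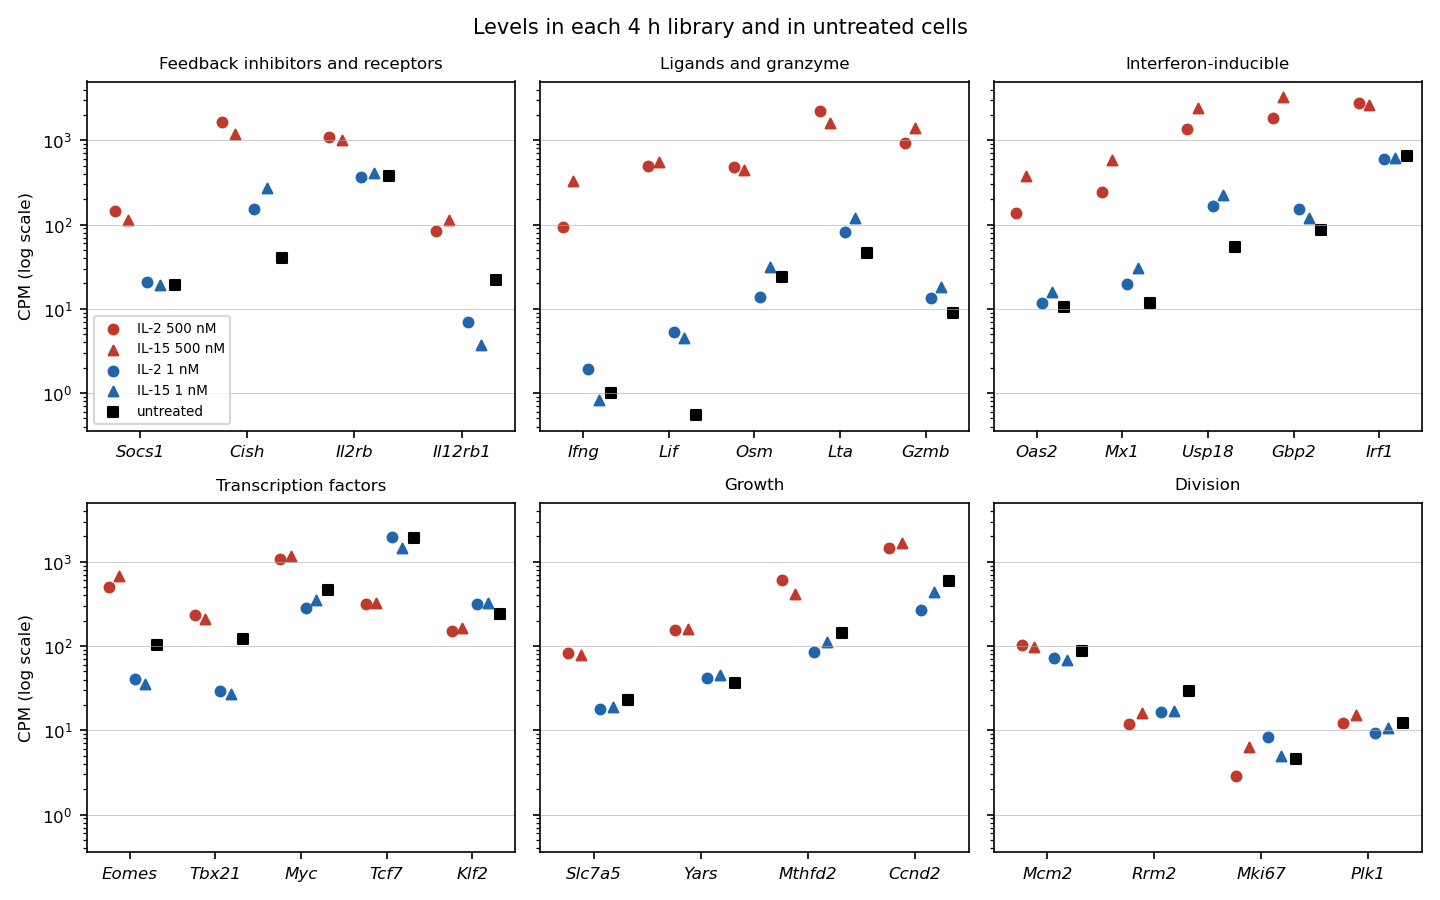
Levels in CPM on a log scale in each 4 h library and in untreated cells, for genes of 6 groups; red symbols are 500 nM, blue 1 nM, black untreated, circles IL-2 and triangles IL-15. Red lies above blue for the feedback, ligand, interferon and growth genes and for Eomes, Tbx21 and Myc, and below blue for Tcf7 and Klf2; in the division panel Mki67 overlaps, with 2.91 and 6.39 CPM at 500 nM, against 8.37 and 5.02 CPM at 1 nM, and Mcm2, Plk1 and Rrm2 were not called.

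Of 25 tested receptor chains 10 were called higher (against 5.42% of all genes) and 1 lower (4.0%, against 4.63%), and the count higher was 3 without the IL-2 1 nM library and 4 without the IL-15 500 nM library. Il12rb1, a chain shared by the IL-12 and IL-23 receptors, rose most, with 84.3 and 112 CPM at 500 nM, against 6.94 and 3.7 CPM at 1 nM and 21.9 CPM untreated (log2 4.31 ± 0.37, adjusted p = 4.7e-05). Il2rb, the β chain that both cytokines use, had 1096 and 1008 CPM at 500 nM, against 365 and 407 CPM at 1 nM and 378 CPM untreated (log2 1.44 ± 0.20, adjusted p = 0.00062). The common chain, Il2rg, had 371 and 521 CPM at 500 nM, against 238 and 261 CPM at 1 nM and 232 CPM untreated (log2 0.83 ± 0.19, adjusted p = 0.016). For both shared chains, 1 nM cells were close to untreated ones. Il10ra, the IL-10 receptor chain, had 197 and 243.9 CPM at 500 nM, against 66.5 and 103 CPM at 1 nM (log2 1.39 ± 0.20). Il15ra, the α chain for IL-15, had 36.8 and 39.5 CPM at 500 nM, against 4.49 and 11.6 CPM at 1 nM and 17.2 CPM untreated (log2 2.26 ± 0.48, adjusted p = 0.0098). Il2ra, the α chain for IL-2, had 35.9 and 45.5 CPM at 500 nM, against 12.7 and 14.7 CPM at 1 nM and 1.65 CPM untreated (log2 1.59 ± 0.61, adjusted p = 0.13), with both 500 nM libraries above both 1 nM libraries and all 4 above untreated cells. It was not called, except in the fits on the 4 h libraries alone and without either 1 nM library of 24 h. Il7r, the receptor of the survival cytokine IL-7, fell to 80.02 and 125 CPM at 500 nM, against 540.0 and 319 CPM at 1 nM and 146 CPM untreated (log2 -2.07 ± 0.28, adjusted p = 0.00058), so that 1 nM cells were above untreated ones. The calls of Il2rg and Il15ra were lost without the IL-2 1 nM or the IL-15 500 nM library, and that of Il2rg also without the IL-15 1 nM library.

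Secreted ligands were among the groups with the largest differences. Of 18 tested cytokines and TNF family ligands 9 were called higher (against 5.42% of all genes) and 0 lower. The count higher was 8 or 9 whichever 4 h library was left out. The median log2 difference was 2.39, against -0.02 over all genes. Osm, oncostatin M, the relative of Lif that lies beside it on chromosome 11, had 485 and 443 CPM at 500 nM, against 13.97 and 31.4 CPM at 1 nM and 23.7 CPM untreated (log2 4.33 ± 0.44, adjusted p = 0.00014). Lta had 2230.3 and 1600.1 CPM at 500 nM, against 82.4 and 121 CPM at 1 nM and 46.4 CPM untreated (log2 4.13 ± 0.51, adjusted p = 0.00035). Its neighbours on chromosome 17 were Tnf, tumour necrosis factor, with 247.4 and 211 CPM at 500 nM, against 39.6 and 51.2 CPM at 1 nM and 11.4 CPM untreated (log2 2.31 ± 0.29), and Ltb, the membrane partner of Lta. Ltb had 2199 and 2354 CPM at 500 nM, against 1019 and 1256 CPM at 1 nM and 952 CPM untreated (log2 1.0 ± 0.18), the smallest difference of these 3 neighbours. The death ligands TRAIL and Fas ligand rose as well. Tnfsf10 (TRAIL) had 37.3 and 78.7 CPM at 500 nM, against 12.1 and 9.7 CPM at 1 nM and 17.8 CPM untreated (log2 2.33 ± 0.32). Fasl had 31.7 and 53.2 CPM at 500 nM, against 3.36 and 8.04 CPM at 1 nM and 0.613 CPM untreated (log2 2.92 ± 0.49). Csf1, macrophage colony-stimulating factor, had 37.2 and 55.7 CPM at 500 nM, against 4.84 and 4.04 CPM at 1 nM and 1.68 CPM untreated (log2 3.32 ± 0.57). In these 7 genes the dose groups did not overlap. The call of Fasl was lost without the IL-2 1 nM or the IL-15 500 nM library, and that of Csf1 without the IL-15 1 nM library. Il2 and Csf2 were at most 1.25 CPM in the 4 libraries and were not called.

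STAT dimers bind a short palindrome, and the promoters of 3 of these genes are shown because they hold it and the genes rose among the feedback and ligand lists. The windows run from 250 bases before the RefSeq start to 50 bases after it (GRCm38.p6 sequence from RefSeq, a later build than the files' mm8), trimmed to at most 40 bases on either side of the matches. Capitals mark TTCNNNGAA, which reads the same on both strands.
Ifng: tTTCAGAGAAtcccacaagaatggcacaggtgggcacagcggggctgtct
Lta: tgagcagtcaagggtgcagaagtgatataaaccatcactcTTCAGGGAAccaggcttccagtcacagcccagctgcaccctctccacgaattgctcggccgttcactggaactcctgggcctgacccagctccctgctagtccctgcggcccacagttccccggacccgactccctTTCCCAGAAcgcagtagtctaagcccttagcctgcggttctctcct
Cish: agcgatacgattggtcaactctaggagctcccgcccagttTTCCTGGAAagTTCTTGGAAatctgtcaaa
The Ifng stretch is chr10:118440796-118440845, plus strand, with the match at the far end of its window, 249 bases before the start. The Lta stretch is chr17:35205322-35205543, minus strand, with its matches 152 and 16 bases before the start, and the Cish stretch is chr9:107296619-107296688, plus strand, with its matches beginning at the start itself and 11 bases after it. The palindrome was in 12.4% of the 723 windows of 300 bases found for genes called higher (569 of 730 genes matched), 6.11% of the 687 for genes called lower (507 of 624 matched), 6.98% of those of all tested genes and 8.3% of all 32851 windows in the table. A match is a description of the sequence and not a measured binding site.

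Of 21 tested chemokines and chemokine receptors 4 were called higher (19.0%, against 5.42% of all genes) and 1 lower (4.76%, against 4.63%). The interferon-inducible ligands of CXCR3 rose. Cxcl10 had 563 and 1261 CPM at 500 nM, against 45.3 and 53.9 CPM at 1 nM and 3.002 CPM untreated (log2 4.24 ± 0.68, adjusted p = 0.0017). Cxcl9 had 96.2 and 155 CPM at 500 nM, against 13.9 and 13.2 CPM at 1 nM and 6.39 CPM untreated (log2 3.28 ± 0.52). Both were higher at 1 nM than in untreated cells and higher again at 500 nM. Xcl1, lymphotactin, had 20.1 and 20.9 CPM at 500 nM, against 5.57 and 5.7 CPM at 1 nM and 11.2 CPM untreated (log2 1.87 ± 0.33). Ccr7, which guides T cells to lymph nodes, fell to 646 and 778 CPM at 500 nM, against 1278 and 1315 CPM at 1 nM and 633 CPM untreated (log2 -0.87 ± 0.17, adjusted p = 0.0057), so that 500 nM cells were level with untreated ones. The inflammatory chemokines Ccl4 and Ccl5 were not called. Ccl4 had 92.2 and 93.0 CPM at 500 nM, against 74.4 and 72.0 CPM at 1 nM (adjusted p = 0.45). Ccl5 had 139 and 196 CPM at 500 nM, against 237 and 206 CPM at 1 nM (adjusted p = 0.26). Without the IL-2 1 nM library 1 of the 4 rises was called, with Cxcl9, Cxcl10 and Xcl1 lost, and Xcl1 was also lost without the IL-15 500 nM library.

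Of 21 tested cytotoxic granule genes 8 were called higher (38.1%, against 5.42% of all genes) and 1 lower (4.76%, against 4.63%). Beyond the granzymes above, Nkg7, a granule membrane protein needed for degranulation, had 108 and 133 CPM at 500 nM, against 22.7 and 30.3 CPM at 1 nM and 120.0 CPM untreated (log2 2.18 ± 0.23, adjusted p = 0.00014), so that 500 nM libraries were level with untreated cells and 1 nM libraries below. Perforin, Prf1, had 84.4 and 78.2 CPM at 500 nM, against 42.5 and 44.8 CPM at 1 nM and 133 CPM untreated (log2 0.90 ± 0.18, adjusted p = 0.0072), with untreated cells the highest. Stx11, a syntaxin of granule release, had 88.6 and 99.8 CPM at 500 nM, against 31.1 and 28.4 CPM at 1 nM and 26.9 CPM untreated (log2 1.67 ± 0.23). Serpinb9, the inhibitor of granzyme B, had 57.1 and 82.3 CPM at 500 nM, against 24.1 and 20.5 CPM at 1 nM and 17.4 CPM untreated (log2 1.66 ± 0.26). In both genes 1 nM libraries were close to untreated cells. Gzma had 10.9 and 16.3 CPM at 500 nM, against 2.83 and 4.19 CPM at 1 nM (log2 1.95 ± 0.48, adjusted p = 0.021). The call of Prf1 was lost without the IL-2 1 nM library, and that of Gzma without any 4 h library but the IL-2 500 nM one.

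Of 26 tested effector and activation transcription factors 7 were called higher (26.9%, against 5.42% of all genes), 1 was called lower (3.85%, against 4.63%) and 18 were not called. Eomes, which with T-bet drives cytotoxic genes, had 499 and 683 CPM at 500 nM, against 40.4 and 35.1 CPM at 1 nM and 103 CPM untreated (log2 3.97 ± 0.25, adjusted p = 1.1e-05). Tbx21, T-bet itself, had 235 and 207 CPM at 500 nM, against 29.5 and 27.02 CPM at 1 nM and 122 CPM untreated (log2 2.97 ± 0.21, adjusted p = 2e-05). In both genes 1 nM libraries lay below untreated cells and 500 nM libraries above them. The interferon regulatory factor Irf8 had 907 and 893 CPM at 500 nM, against 206 and 169 CPM at 1 nM (log2 2.28 ± 0.22). Its relative Irf4, which scales with activation, had 92.3 and 114 CPM at 500 nM, against 35.3 and 33.2 CPM at 1 nM (log2 1.60 ± 0.25). None of the 1 nM libraries reached a 500 nM one in either. Rbpj, the DNA-binding partner of Notch, had 124 and 122 CPM at 500 nM, against 59.9 and 51.9 CPM at 1 nM (log2 1.14 ± 0.19). Id2, which supports effector cells, was called lower, with 241 and 173 CPM at 500 nM, against 318 and 363 CPM at 1 nM (log2 -0.72 ± 0.20, adjusted p = 0.037), a call lost without any 4 h library but the IL-2 500 nM one, without either 500 nM library of 24 h, and in the fits on the 4 h libraries alone. Prdm1 (Blimp-1) was at most 2.48 CPM and was not called (adjusted p = 0.95), and Batf had 18.996 and 24.6 CPM at 500 nM, against 16.3 and 18.04 CPM at 1 nM (adjusted p = 0.48).

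Of 23 immediate early and AP-1 genes tested 5 were called higher (21.7%, against 5.42% of all genes) and 1 lower (4.35%, against 4.63%). The count higher was 3 without the IL-2 1 nM library. Jun had 332 and 459 CPM at 500 nM, against 36.5 and 48.1 CPM at 1 nM and 28.4 CPM untreated (log2 3.23 ± 0.33, adjusted p = 0.00014). Its partner Fos had 84.2 and 70.6 CPM at 500 nM, against 32.7 and 23.4 CPM at 1 nM and 36.3 CPM untreated (log2 1.48 ± 0.22). Nfkbiz, a co-regulator of NF-κB, had 164 and 193 CPM at 500 nM, against 46.3 and 59.6 CPM at 1 nM (log2 1.76 ± 0.19). In all 3, 1 nM libraries were far closer to each other than to the 500 nM ones. Atf3, a stress-inducible factor, had 128 and 102 CPM at 500 nM, against 47.6 and 49.3 CPM at 1 nM and 3.36 CPM untreated (log2 1.25 ± 0.24), a call lost without any 4 h library but the IL-15 500 nM one. Egr1 and Nr4a1, which follow antigen receptor signals, were not called. Egr1 had 77.3 and 103 CPM at 500 nM, against 69.5 and 65.9 CPM at 1 nM (adjusted p = 0.34). Nr4a1 had 77.6 and 78.2 CPM at 500 nM, against 87.3 and 84.8 CPM at 1 nM (adjusted p = 0.74).

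Among 20 costimulatory and inhibitory receptors 3 were called higher (against 5.42% of all genes) and 2 lower (against 4.63%). Cd69, the early activation marker, had 423 and 873 CPM at 500 nM, against 90.4 and 59.3 CPM at 1 nM and 29.5 CPM untreated (log2 3.16 ± 0.39, adjusted p = 0.00038). Tnfrsf9 (4-1BB), which sustains cytotoxic cells, had 67.6 and 110.2 CPM at 500 nM, against 14.02 and 14.2 CPM at 1 nM (log2 2.69 ± 0.48). Cd28, the main costimulatory receptor of naive cells, fell to 21.9 and 27.1 CPM at 500 nM, against 84.4 and 51.5 CPM at 1 nM (log2 -1.44 ± 0.25). Without the IL-2 1 nM or the IL-15 500 nM library 1 of the 3 rises was called, and Tnfrsf9 was not. The count lower was 1 without either IL-2 library or the IL-15 1 nM library.

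Many genes that mark naive and memory T cells fell. Of 24 tested, 0 were called higher and 11 lower (against 4.63% of all genes), with a median log2 difference of -0.59, and 7 to 10 were called lower when one 4 h library was left out, fewest without the IL-2 1 nM library. Tcf7, which encodes TCF-1 and maintains naive and memory cells, had 318 and 319.9 CPM at 500 nM, against 1988 and 1473 CPM at 1 nM and 1912 CPM untreated (log2 -2.44 ± 0.21, adjusted p = 4.9e-05), 5.43-fold lower, with both 1 nM libraries close to untreated cells. Its partner Lef1 had 208 and 196 CPM at 500 nM, against 557 and 437 CPM at 1 nM and 437 CPM untreated (log2 -1.30 ± 0.20). Both factors were lowest in the 500 nM libraries. Klf2, which keeps T cells quiescent, had 152 and 162 CPM at 500 nM, against 313 and 328 CPM at 1 nM and 242 CPM untreated (log2 -1.03 ± 0.17). Klf3, of the same family, had 22.3 and 21.1 CPM at 500 nM, against 76.5 and 68.1 CPM at 1 nM (log2 -1.74 ± 0.25). S1pr1, which lets T cells leave lymphoid organs and which Klf2 controls, had 511 and 405 CPM at 500 nM, against 1275 and 1107 CPM at 1 nM and 1073 CPM untreated (log2 -1.38 ± 0.21). In all 5 genes, as in Il7r above, the dose groups did not overlap and no library left out ended the call. Foxo1, the factor that drives Klf2 and Il7r, was not called, with 116 and 112 CPM at 500 nM, against 157 and 158 CPM at 1 nM and 295 CPM untreated (adjusted p = 0.13), and Bcl6 was at most 3.58 CPM (adjusted p = 0.74). Among 14 T cell identity genes 3 were higher (21.4%, against 5.42% of all genes), Cd8a (log2 0.89 ± 0.17), Thy1 (0.79 ± 0.18) and Cd2 (1.04 ± 0.23). The 2 lower (14.3%, against 4.63%) were Cd5 and Cd3g (-0.83 ± 0.19). Cd5, a brake on antigen receptor signalling, had 20.8 and 14.8 CPM at 500 nM, against 66.8 and 75.5 CPM at 1 nM and 149 CPM untreated (log2 -2.0 ± 0.22, adjusted p = 0.00019). The call of Thy1 was lost without either IL-2 library and those of Cd2 and Cd3g without either IL-15 library.

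The antiviral genes that interferons induce rose together. All 28 tested members were called higher at 500 nM, against 5.42% of all genes, and 23 to 27 were called when one 4 h library was left out. The median log2 difference was 2.76, with 2.22 in the IL-2 pair and 3.23 in the IL-15 pair, and 27 of 28 members differed more in the IL-15 pair; that difference between cytokines was not tested here. Oas2, an enzyme that senses viral RNA, had 137 and 373 CPM at 500 nM, against 11.8 and 16.04 CPM at 1 nM and 10.6 CPM untreated (log2 4.08 ± 0.29, adjusted p = 2e-05). Mx1, a GTPase that blocks influenza, had 243 and 589 CPM at 500 nM, against 19.8 and 30.8 CPM at 1 nM and 11.7 CPM untreated (log2 3.99 ± 0.45). Usp18, which removes ISG15 from proteins and dampens the interferon receptor, had 1364 and 2390.3 CPM at 500 nM, against 168 and 222 CPM at 1 nM and 54.3 CPM untreated (log2 3.25 ± 0.28, adjusted p = 4.7e-05). In all 3 the 1 nM libraries were above untreated cells by far less than the 500 nM libraries were. Rsad2 (viperin), which blocks viral replication, had 612 and 1465 CPM at 500 nM, against 116 and 111 CPM at 1 nM and 17.1 CPM untreated (log2 3.10 ± 0.31). Slfn5, of the Schlafen family and outside the list of 28, had 78.2 and 259 CPM at 500 nM, against 4.63 and 10.04 CPM at 1 nM and 7.43 CPM untreated (log2 4.41 ± 0.28, adjusted p = 1.1e-05). The RNA sensor Ifih1 (MDA5) had 91.0 and 241 CPM at 500 nM, against 23.9 and 22.04 CPM at 1 nM (log2 2.78 ± 0.38), and Irf7, the main factor of the interferon response, was called as well (log2 2.13 ± 0.23). In each of these genes the IL-15 500 nM library was the highest of the 4 and the IL-2 500 nM library the next.

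Targets of interferon-γ rose with them. Of 19 tested GTPases and interferon-γ targets 18 were called higher (94.7%, against 5.42% of all genes) and 0 lower, with a median log2 difference of 2.69. Without the IL-2 1 nM library 8 were called. Gbp2, a guanylate-binding protein that attacks the vacuoles of intracellular pathogens, had 1827 and 3229.8 CPM at 500 nM, against 151 and 119 CPM at 1 nM and 85.1 CPM untreated (log2 4.32 ± 0.55, adjusted p = 0.00041). Iigp1, an immunity-related GTPase of the same defence, rose most of the list, with 53.6 and 127 CPM at 500 nM, against 1.96 and 1.81 CPM at 1 nM and 0.387 CPM untreated (log2 5.69 ± 0.84, adjusted p = 0.001). Irf1, the factor that relays interferon-γ, had 2758 and 2609 CPM at 500 nM, against 597 and 613 CPM at 1 nM and 656 CPM untreated (log2 2.14 ± 0.28, adjusted p = 0.00047). Its 1 nM libraries were level with untreated cells. Igtp, a relative of Iigp1, reached 1787 and 1857 RPKM at 500 nM, against 275 and 271 RPKM at 1 nM, and its call was lost without the IL-2 1 nM or the IL-15 500 nM library. Ciita, the master regulator of class II genes, was the 1 member not called, with 8.21 and 16.2 CPM at 500 nM, against 6.22 and 8.19 CPM at 1 nM and 42.9 CPM untreated (adjusted p = 0.21). The guanylate-binding proteins are near-identical copies of one another in part, so how reads were shared among them is uncertain. Among the interferon genes themselves Ifng rose (above), the 11 listed Ifna genes had 0 counts in all 9 libraries, and Ifnb1 had 0 counts in the IL-2 and 17 in the IL-15 library at 500 nM, against 1 and 0 at 1 nM. The type III genes Il28a and Il28b had 0 counts.

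Interferon-induced factors bind repeats of GAAA, and 3 promoters of this kind are shown with the core GAAANNGAA, or TTCNNTTTC on the other strand, in capitals (RefSeq, GRCm38.p6, trimmed as above).
Gbp2: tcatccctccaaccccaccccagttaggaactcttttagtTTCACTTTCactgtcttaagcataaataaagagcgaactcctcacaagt
Cxcl10: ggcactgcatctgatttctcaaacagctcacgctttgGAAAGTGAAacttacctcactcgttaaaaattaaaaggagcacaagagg
Ifi44: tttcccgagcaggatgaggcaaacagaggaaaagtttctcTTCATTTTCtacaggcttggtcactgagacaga
The Gbp2 stretch is chr3:142620565-142620653, plus strand, with the match 58 bases before the start. The Cxcl10 stretch is chr5:92349054-92349139, minus strand, with the match 213 bases before the start, and the Ifi44 stretch is chr3:151749881-151749953, minus strand, with the match 3 bases before it. Ifi44, an interferon-induced gene of unsettled function, had 17.5 and 28.9 CPM at 500 nM, against 3.12 and 1.17 CPM at 1 nM (log2 3.41 ± 0.50). The core was in 16.2% of the windows of genes called higher, 5.82% of those of genes called lower, 7.32% of those of all tested genes and 8.56% of all windows. Within the lists it was in 14 of 25 windows found for the antiviral genes (56.0%) and 12 of 18 for the GTPases and interferon-γ targets (66.7%). The E-box CACGTG, which Myc binds, was in 7.75% of the windows of genes called higher, 11.2% of those of genes called lower and 9.67% of those of all tested genes.

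Antigen presentation on class I molecules followed. Of 14 tested genes 11 were called higher (78.6%, against 5.42% of all genes) and 0 lower, with a median log2 difference of 1.31. Without the IL-2 1 nM or without the IL-15 500 nM library 6 were called. Nlrc5, the activator of class I genes, had 859 and 1046 CPM at 500 nM, against 254 and 287 CPM at 1 nM and 216 CPM untreated (log2 1.82 ± 0.22, adjusted p = 0.00035). Tap1, a chain of the peptide transporter, had 1339 and 1497 CPM at 500 nM, against 546 and 644 CPM at 1 nM (log2 1.25 ± 0.22). Tapbp (tapasin), which loads peptides, had 1451 and 2255 CPM at 500 nM, against 574 and 629 CPM at 1 nM (log2 1.62 ± 0.24). In these 3 genes every 500 nM library was above every 1 nM library. Psmb8, an immunoproteasome subunit, had 2559.8 and 3845 CPM at 500 nM, against 1045 and 1094 CPM at 1 nM (log2 1.58 ± 0.25). B2m, the light chain of class I, had 4841 and 5603 CPM at 500 nM, against 2799 and 2807 CPM at 1 nM (log2 0.90 ± 0.21, adjusted p = 0.017), a call lost without any 4 h library but the IL-2 500 nM one. The heavy chain H2-K1 had 13184 and 12180.2 CPM at 500 nM, against 8994 and 12627 CPM at 1 nM and was not called (adjusted p = 0.48). Its counts are uncertain, since it shares sequence with other class I genes.

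Genes of amino acid supply rose as a group. Of 26 tested amino acid transporters, tRNA synthetases and ATF4 targets 19 were called higher (73.1%, against 5.42% of all genes) and 0 lower. The median log2 difference was 1.28. When one 4 h library was left out 11 to 15 were called, fewest without the IL-2 1 nM library. Slc7a5, the light chain of the leucine transporter, had 82.8 and 78.6 CPM at 500 nM, against 17.95 and 18.98 CPM at 1 nM and 22.6 CPM untreated (log2 2.12 ± 0.28, adjusted p = 0.00057). Slc7a1, the arginine transporter, had 146 and 128 CPM at 500 nM, against 37.5 and 46.6 CPM at 1 nM (log2 1.70 ± 0.22). Among the tRNA synthetases, Yars, for tyrosine, had 153 and 160.5 CPM at 500 nM, against 41.7 and 44.9 CPM at 1 nM (log2 1.86 ± 0.20). Aars, for alanine, had 253 and 254 CPM at 500 nM, against 72.1 and 73.7 CPM at 1 nM (log2 1.8 ± 0.23). Asns, asparagine synthetase, had 59.3 and 51.4 CPM at 500 nM, against 10.1 and 14.04 CPM at 1 nM and 1.26 CPM untreated (log2 2.15 ± 0.42). Both doses were far above untreated cells. Trib3, a target and inhibitor of ATF4, had 123 and 86.1 CPM at 500 nM, against 29.1 and 28.4 CPM at 1 nM and 8.88 CPM untreated (log2 1.84 ± 0.23). Atf4 itself had 659.7 and 621 CPM at 500 nM, against 329 and 372 CPM at 1 nM (log2 0.87 ± 0.20, adjusted p = 0.016). The calls of Asns and Atf4 were lost without the IL-2 1 nM or the IL-15 500 nM library, and that of Atf4 also without the IL-2 500 nM library.

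Myc, the factor that drives cell growth and activates ribosome and nucleotide genes, had 1091 and 1169 CPM at 500 nM, against 286 and 356 CPM at 1 nM and 457 CPM untreated (log2 1.81 ± 0.20, adjusted p = 0.00018). Mxd1, which opposes Myc at the same sites, also rose, with 258 and 461 CPM at 500 nM, against 58.1 and 53.1 CPM at 1 nM and 18.6 CPM untreated (log2 2.70 ± 0.33). Of the 14 genes of this network and the Pim kinases 4 were called higher (28.6%, against 5.42% of all genes) and 1 lower (7.14%, against 4.63%). Pim2, a survival kinase that STAT5 induces, had 1395 and 1335 CPM at 500 nM, against 359 and 571 CPM at 1 nM (log2 1.53 ± 0.29, adjusted p = 0.0054), a call lost without the IL-2 1 nM or the IL-15 500 nM library. Pim1 had 20.03 and 33.4 CPM at 500 nM, against 18.3 and 16.9 CPM at 1 nM and was not called (adjusted p = 0.32). Without either of those libraries 2 of the 4 were called.

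Of 28 ribosome biogenesis genes 11 were called higher (39.3%, against 5.42% of all genes) and 0 lower, with a median log2 difference of 0.59. The count higher was 3 without the IL-2 1 nM library and 2 without the IL-15 500 nM library. It was 7 without the IL-15 1 nM or the IL-2 500 nM 24 h library. Wdr43, a protein of the small subunit precursor, had 272 and 249 CPM at 500 nM, against 104.6 and 102 CPM at 1 nM (log2 1.33 ± 0.18). Dkc1, the pseudouridine synthase dyskerin, had 70.7 and 80.7 CPM at 500 nM, against 28.2 and 36.3 CPM at 1 nM (log2 1.23 ± 0.21). Nucleolin, Ncl, differed far less, with 551 and 522 CPM at 500 nM, against 519 and 509 CPM at 1 nM (adjusted p = 0.9). Of 28 polyamine, one-carbon and nucleotide genes 6 were called higher (21.4%, against 5.42% of all genes) and 0 lower, led by the mitochondrial folate enzymes. Mthfd2 had 615 and 419.5 CPM at 500 nM, against 83.9 and 111 CPM at 1 nM and 145 CPM untreated (log2 2.35 ± 0.30, adjusted p = 0.00045). Shmt2 had 588 and 520.4 CPM at 500 nM, against 152 and 225 CPM at 1 nM (log2 1.55 ± 0.24). Phgdh, which starts serine synthesis, had 65.9 and 79.7 CPM at 500 nM, against 24.4 and 24.3 CPM at 1 nM (log2 1.59 ± 0.27), a call lost without the IL-2 1 nM library. Odc1, the first enzyme of polyamine synthesis, had 46.8 and 55.6 CPM at 500 nM, against 47.6 and 51.1 CPM at 1 nM and 9.62 CPM untreated, with no difference called between doses (adjusted p = 0.95) and all 4 libraries above untreated cells. The count of 6 was 2 without the IL-2 1 nM library, 3 without the IL-15 500 nM library and 10 without the IL-15 1 nM 24 h library.

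Of 20 glycolysis genes 4 were called higher (against 5.42% of all genes) and 0 lower (against 4.63%). Eno1, enolase, had 723 and 641 CPM at 500 nM, against 251 and 310.5 CPM at 1 nM (log2 1.27 ± 0.19, adjusted p = 0.0013). Lactate dehydrogenase, Ldha, had 668 and 617 CPM at 500 nM, against 487 and 608 CPM at 1 nM and was not called (adjusted p = 0.56). Cholesterol and fatty acid synthesis had 2 of 24 called higher (8.33%) and 1 lower (4.17%) and the respiratory chain 1 of 25 higher (4.0%), near the 5.42% and 4.63% of all genes, with chaperones of the endoplasmic reticulum 4 of 21 higher, and heat shock proteins 4 of 20 higher and 1 lower. Hspa5, the chaperone BiP, had 699 and 977 CPM at 500 nM, against 326 and 275 CPM at 1 nM (log2 1.49 ± 0.21). These small counts changed with single libraries. The glycolysis count was 2 without either 1 nM library and 1 without the IL-15 500 nM library, and the chaperone count 1, 2 and 2 without the IL-2 1 nM, the IL-15 1 nM and the IL-15 500 nM library. The heat shock count was 1 without either 1 nM library and 0 without the IL-15 500 nM library, the cholesterol count was 1 without any 4 h library, and the respiratory count was 0 without either 1 nM or the IL-15 500 nM library. Of 31 cytosolic ribosomal proteins 0 were called in either direction by edgeR, DESeq2 or limma-voom (6 had an unadjusted p under 0.05), with a median log2 difference of -0.20, and 4 were lower without the IL-2 1 nM library.

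The D cyclins Ccnd2 and Ccnd3 rose at 4 h. Ccnd2, which carries growth signals into the cycle, had 1447 and 1665 CPM at 500 nM, against 271 and 439 CPM at 1 nM and 593 CPM untreated (log2 2.14 ± 0.25, adjusted p = 0.00025). Ccnd3, the other main one of T cells, had 1131 and 846 CPM at 500 nM, against 305 and 358 CPM at 1 nM and 788 CPM untreated (log2 1.56 ± 0.20, adjusted p = 0.0004). In both, untreated cells lay between the doses. Cdk6, a kinase they bind, had 28.1 and 22.6 CPM at 500 nM, against 5.79 and 8.23 CPM at 1 nM (log2 1.78 ± 0.48, adjusted p = 0.035). Ccng2, a cyclin of arrested cells, fell to 83.7 and 71.0 CPM at 500 nM, against 272 and 151 CPM at 1 nM (log2 -1.43 ± 0.24). In all, 6 of 23 tested G1 genes were higher (26.1%, against 5.42% of all genes) and 2 lower (8.7%, against 4.63%). The count higher was 2 without the IL-2 1 nM or the IL-15 500 nM library and 3 without the IL-15 1 nM library. The call of Cdk6 was lost without any 4 h library but the IL-15 1 nM one. Of 29 DNA replication genes 1 was called higher, Rfc3, and 1 lower, Cdt1 (3.45% each, near the 5.42% and 4.63% of all genes). Cdt1, which licenses origins, had 250.1 and 238 CPM at 500 nM, against 439 and 463 CPM at 1 nM (log2 -0.88 ± 0.18, adjusted p = 0.0066). Mcm2, a helicase subunit, had 103 and 98.7 CPM at 500 nM, against 71.7 and 67.5 CPM at 1 nM (adjusted p = 0.11) and was called higher by DESeq2 alone. Of 24 mitosis genes 0 were called by edgeR (2 had an unadjusted p under 0.05), 1 by DESeq2 and 0 by limma-voom, with a median log2 difference of 0.01. Mki67, the proliferation marker, had 2.91 and 6.39 CPM at 500 nM, against 8.37 and 5.02 CPM at 1 nM (adjusted p = 0.48). The calls of Rfc3 and Cdt1 were both lost without the IL-15 500 nM library, and that of Rfc3 also without either 1 nM library.

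Of 17 BCL-2 family genes 1 was called higher (5.88%, against 5.42% of all genes) and 2 lower (11.8%, against 4.63%), so that the list as a whole stood near the background in the upward direction. Bcl2l1 (BCL-XL), which protects mitochondria, had 85.6 and 108 CPM at 500 nM, against 39.1 and 32.7 CPM at 1 nM and 31.9 CPM untreated (log2 1.44 ± 0.25, adjusted p = 0.0031). The killers Bbc3 and Bmf were lower. Bbc3 (PUMA) had 16.6 and 8.05 CPM at 500 nM, against 24.5 and 34.3 CPM at 1 nM (log2 -1.31 ± 0.33, adjusted p = 0.026). Bmf had 7.03 and 3.79 CPM at 500 nM, against 14.4 and 9.96 CPM at 1 nM (log2 -1.21 ± 0.34, adjusted p = 0.044). Bcl2 had 689 and 580.1 CPM at 500 nM, against 179.6 and 508 CPM at 1 nM (adjusted p = 0.12), with the IL-15 1 nM library near the 500 nM ones, and was called higher without that library and in the 4 h fit with the cytokine term. Mcl1 had 378 and 409 CPM at 500 nM, against 389 and 329 CPM at 1 nM (adjusted p = 0.79), and its dose groups overlapped. The calls of Bcl2l1 and Bbc3 were lost without either IL-15 library and that of Bmf without any treated library. Pik3ip1, an inhibitor of PI3K, fell to 100.5 and 88.5 CPM at 500 nM, against 288 and 227 CPM at 1 nM (log2 -1.45 ± 0.21, adjusted p = 0.00096). It was 1 of 4 called lower (against 4.63% of all genes) among 16 genes of ERK and PI3K feedback. In that list 1 was called higher (against 5.42%). The count lower was 1 without the IL-2 1 nM and 2 without the IL-15 500 nM library. Of the 12 NK receptors that CD8+ T cells can carry, 0 were called at 4 h by edgeR, DESeq2 or limma-voom, and 3 had an unadjusted p under 0.05.

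**Figure D3:**
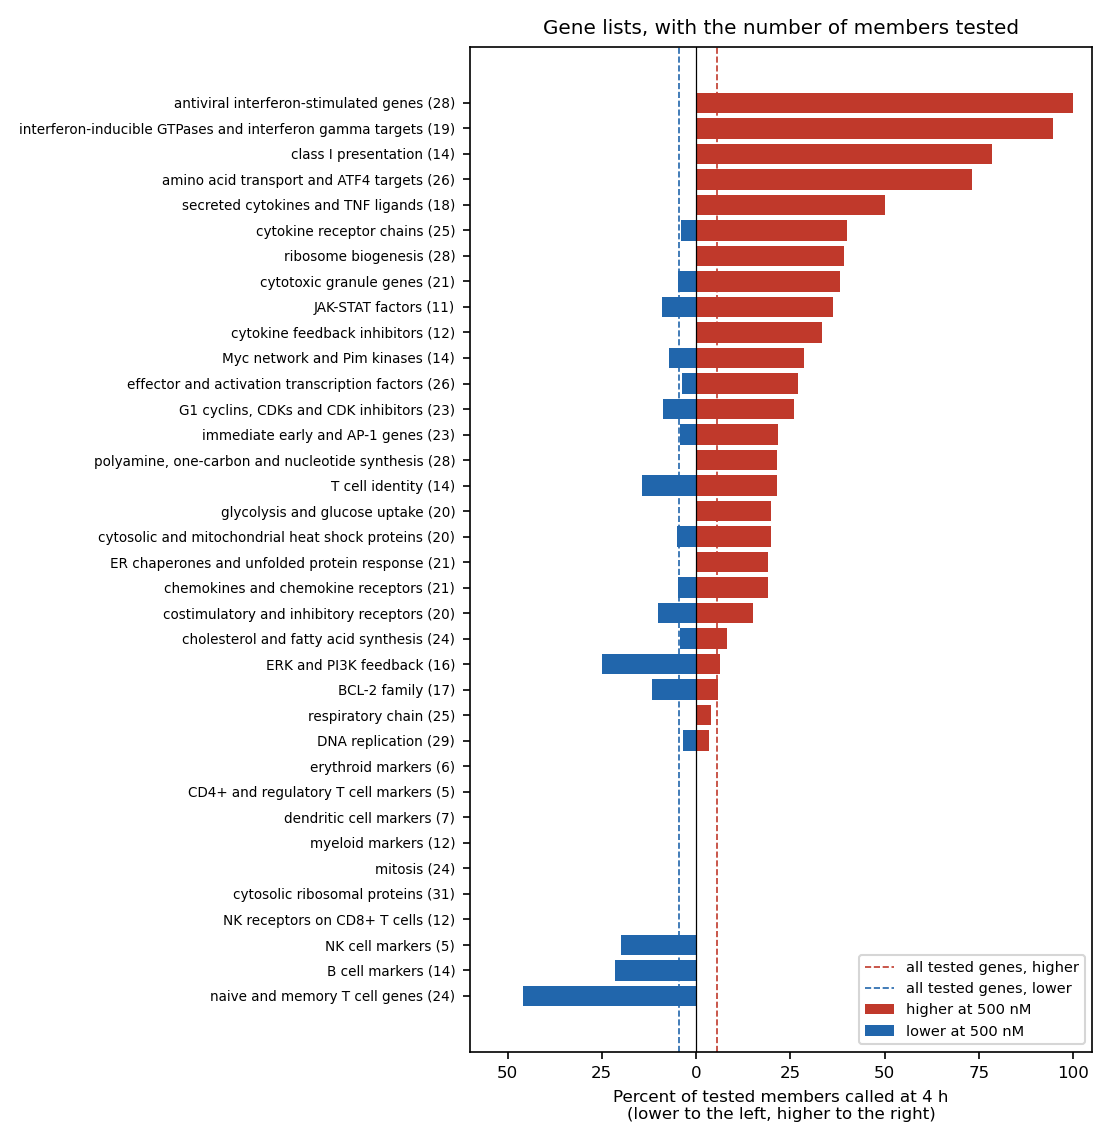
Percent of the tested members of each of 36 gene lists called higher (red, to the right) or lower (blue, to the left) at 500 nM at 4 h, with dashed lines at the shares of all tested genes (5.42% and 4.63%). The antiviral and interferon lists, class I presentation and amino acid supply reach past 70% higher, and the naive and memory list reaches farthest to the left.

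Some called genes lay beside one another. Ordered along GRCm38.p6, which gave a place to 13340 of the tested genes, there were 20 runs of 3 or more consecutive tested genes called higher (77 genes) and 7 runs called lower (21 genes). The longest was 7 genes of the interferon-inducible Ifi200 family on chromosome 1, followed by 6 of the Ifit family on chromosome 19, 5 guanylate-binding genes on chromosome 5, 5 Ly6 genes on chromosome 15 and 5 further genes on chromosome 14. A run of 4 on chromosome 17 held Psmb9, Tap1, Psmb8 and Tap2, which make and transport class I peptides, and the call of Psmb9 was lost without the IL-2 1 nM or the IL-15 500 nM library. Runs of 3 held Osm and Lif with Gatsl3 on chromosome 11, and Ltb, Tnf and Lta on chromosome 17. Neighbours in the multigene families can share reads, so these runs are partly uncertain.

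At 24 h the same contrast called more genes: 2103 higher (15.6%) and 2104 lower (15.6%). That total of 4207 was 2437 without the IL-15 1 nM, 2176 without the IL-15 500 nM and 2086 without the IL-2 500 nM library of 24 h. Of the 731 genes higher at 4 h, 391 were also called higher at 24 h and 23 lower. Of the 624 genes lower at 4 h, 462 were also called lower at 24 h and 12 higher. The 2 contrasts share no treated library, but the untreated library and the estimate of spread are common to the fit. A test of the difference itself, the dose effect at 4 h minus that at 24 h, was above 0 for 641 genes (4.76%) and below 0 for 547 (4.06%). That total of 1188 was 356 without the IL-15 500 nM 24 h library, 369 without the IL-2 500 nM 24 h, 400 without the IL-15 1 nM 4 h, 602 without the IL-15 500 nM 4 h and 781 without the IL-15 1 nM 24 h library, and 1792 with DESeq2. Of the 731 genes higher at 4 h, 202 were called in this test, and 195 of those differed more at 4 h. Of the 624 genes lower at 4 h, 121 were called in it, and 54 of those differed more at 4 h. Both sets were chosen by their 4 h difference, which favours a larger value at that time.

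The median dose effect was larger at 4 h for the interferon lists and larger at 24 h for the naive and memory list, with fewer than 1 in 2 members of each passing the test of the difference. For the antiviral genes the median log2 difference was 2.76 at 4 h and 1.40 at 24 h. By the test of the difference 10 of 28 had a larger effect at 4 h, as had 8 of the 19 GTPases and interferon-γ targets. Over all tested genes 4.76% were above 0 in that test. Slfn5, outside these lists, differed by 4.41 ± 0.28 at 4 h and 0.60 ± 0.25 at 24 h, a difference of 3.81 ± 0.36 (adjusted p = 0.0003). For Oas2 the difference was 2.36 ± 0.37 (adjusted p = 0.0041). Irf9, a DNA-binding factor of the interferon response, was 0.84 at 4 h and -0.89 at 24 h, a difference of 1.73 ± 0.29 (adjusted p = 0.0057). The 4 h call of Irf9 alone was lost without any 4 h library but the IL-2 500 nM one. Trib3 was 1.84 at 4 h and -0.02 at 24 h (adjusted p = 0.0057 for the difference). Atf3 was 1.25 at 4 h and -1.23 at 24 h (adjusted p = 0.0022). For the naive and memory genes the median was -0.59 at 4 h and -1.43 at 24 h, where 21 of 24 were called lower, against 15.6% of all genes. By the test 9 of 24 fell further at 24 h, against the same 4.76% above 0. Il7r was -2.07 at 4 h and -4.15 at 24 h (adjusted p = 0.0078). Klf2 was -1.03 at 4 h and -2.97 at 24 h (adjusted p = 0.0013). Ccl5 had no dose difference called at 4 h (log2 -0.41 ± 0.21) and -3.50 ± 0.23 at 24 h (adjusted p = 0.00031 for the difference).

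Division genes rose at 24 h. Of 29 replication genes 28 were called higher at 24 h, against 1 at 4 h, and 23 differed by the test of the difference. Of 24 mitosis genes all 24 were called higher at 24 h, against 0 at 4 h, and 17 differed by that test. Over all tested genes 15.6% were called higher at 24 h, and 4.06% were below 0 in that test. The medians were 0.09 at 4 h and 2.16 at 24 h for replication, and 0.01 at 4 h and 2.94 at 24 h for mitosis. Rrm2, a subunit of ribonucleotide reductase, was -0.24 ± 0.41 at 4 h and 3.42 ± 0.44 at 24 h (difference -3.67 ± 0.59, adjusted p = 0.0043). Mcm7, of the replicative helicase, was -0.33 at 4 h and 2.13 at 24 h (adjusted p = 0.00089). Cdt1 changed sign, with -0.88 at 4 h and 0.99 at 24 h (adjusted p = 0.0019). Tk1, thymidine kinase, was -0.79 at 4 h and 2.76 at 24 h (adjusted p = 0.0062). The mitotic genes behaved like those of replication. Mki67 was -0.52 at 4 h and 3.09 at 24 h (adjusted p = 0.0035). Prc1, a spindle protein, was -0.42 at 4 h and 3.37 at 24 h (adjusted p = 0.0041). Aspm and Hmmr, of the spindle too, were among the 8 largest differences below 0, -6.26 ± 1.64 (adjusted p = 0.035) and -6.07 ± 1.73 (adjusted p = 0.049), from at most 0.996 CPM in any 4 h library. The call of Aspm was lost without any treated library but the IL-2 1 nM 24 h one, and that of Hmmr without 5 of the 8 treated libraries.

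Metabolic lists lay between. Members called higher numbered 4 of 20 at 4 h and 14 at 24 h for glycolysis, 2 of 24 and 19 for cholesterol and fatty acids, 1 of 25 and 17 for the respiratory chain, and 6 of 28 and 24 for one-carbon and nucleotide genes. Over all tested genes the shares called higher were 5.42% at 4 h and 15.6% at 24 h. Triose phosphate isomerase, Tpi1, was -0.40 at 4 h and 1.89 at 24 h (adjusted p = 0.0013 for the difference). Pgk1, of the same pathway, was 0.12 at 4 h and 1.83 at 24 h (adjusted p = 0.006). Fatty acid synthase, Fasn, was 0.43 at 4 h and 1.96 at 24 h (adjusted p = 0.0051). None of these 3 was called at 4 h. The chaperonin Hspd1 was 0.37 at 4 h and 2.28 at 24 h (adjusted p = 0.0041). Srm, spermidine synthase, was 0.88 at 4 h, a call lost without 3 of the 4 h libraries, and 2.74 at 24 h (adjusted p = 0.0062). Amino acid supply, in contrast, had 19 of 26 called higher at 4 h and 18 at 24 h.

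**Figure D4:**
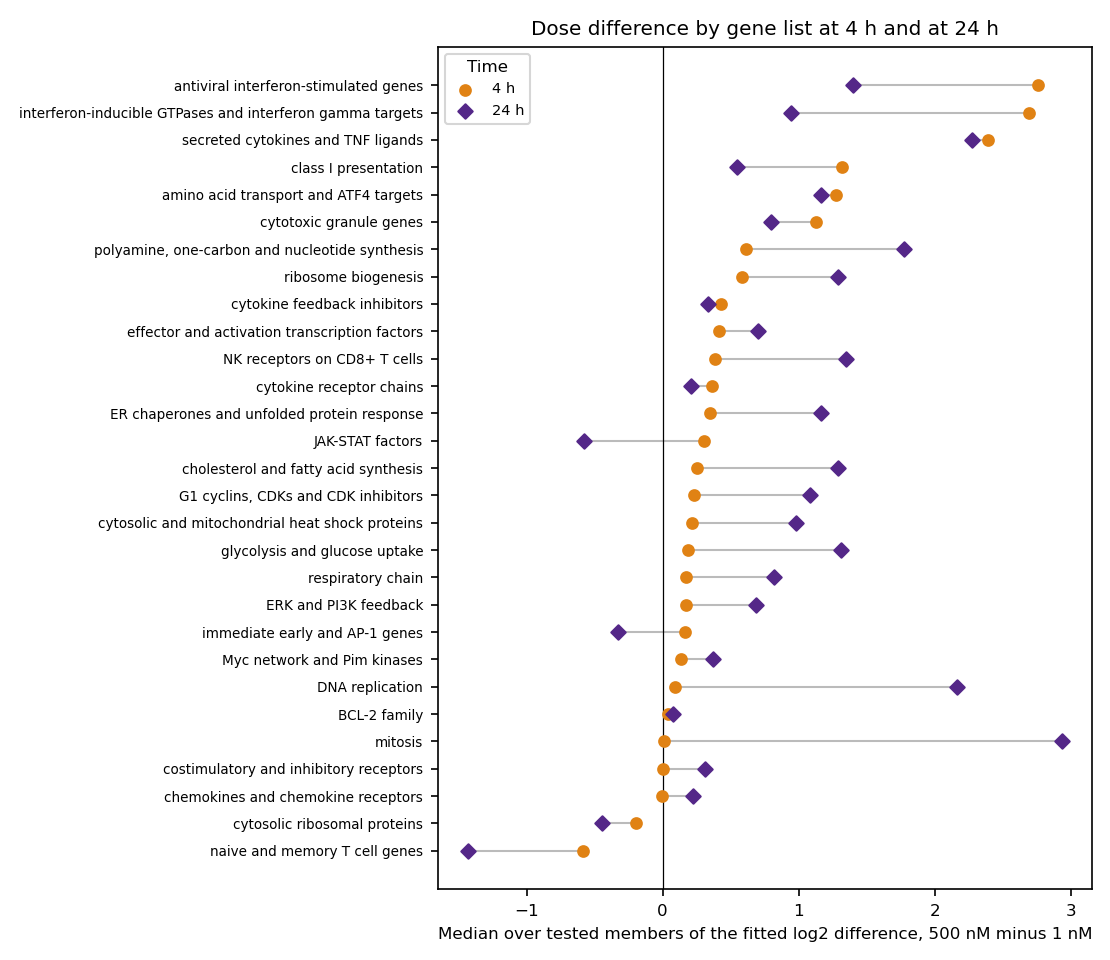
Median over the tested members of 29 gene lists of the fitted log2 difference, 500 nM minus 1 nM, at 4 h (orange circles) and 24 h (purple diamonds). The interferon lists lie farther right at 4 h, mitosis and DNA replication are near 0 at 4 h and above 2 at 24 h, and the naive and memory list is below 0 at both times.

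Markers of other cells also differed in their dose effect between the times. By the test of the difference 9 of 12 myeloid markers were above 0, against 4.76% of all genes. Lyz2, lysozyme, had a log2 difference of -0.03 ± 0.22 at 4 h and -6.17 ± 0.28 at 24 h (difference 6.14 ± 0.34, adjusted p = 5.4e-06). The complement gene C1qa had -0.74 ± 0.27 at 4 h and -5.74 ± 0.34 at 24 h (difference 5.0 ± 0.42). Mrc1, the mannose receptor, and Fabp4, a fatty acid carrier of macrophages, had fitted differences between the times of 8.83 ± 1.29 and 9.19 ± 1.56, with 4 h effects of -0.41 and -0.51 that were not called. Timd4, a receptor of macrophages for dying cells, had one of 8.63 ± 1.56, a call lost without the IL-15 500 nM 4 h library. These 3 were at or near 0 counts at 500 nM after 24 h, so that the fitted sizes depend on the model's prior count. At 4 h the dose groups overlapped for Lyz2, with 18.6 and 23.7 CPM at 500 nM, against 21.8 and 20.7 CPM at 1 nM. For Csf1r both 500 nM libraries were lower, with 23.97 and 14.8 CPM at 500 nM, against 38.5 and 38.1 CPM at 1 nM (adjusted p = 0.1), and it was called in the fits on the 4 h libraries alone. Among B cell and NK markers called lower at 4 h, Fcer2a (CD23) had 9.82 and 5.78 CPM at 500 nM, against 28.6 and 21.8 CPM at 1 nM (log2 -1.70 ± 0.37). Cd79b, a chain of the B cell receptor, had 74.9 and 88.5 CPM at 500 nM, against 125 and 133 CPM at 1 nM (log2 -0.66 ± 0.18). Tyrobp, an adaptor of NK and myeloid cells, had 15.5 and 10.2 CPM at 500 nM, against 29.4 and 25.4 CPM at 1 nM (log2 -1.09 ± 0.28). The call of Cd79b was lost without any 4 h library and in the fits on the 4 h libraries alone, that of Tyrobp without any but the IL-2 500 nM one, and that of Fcer2a without the IL-2 1 nM or the IL-15 500 nM library. Their part in the dose difference of other genes was not tested.

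Set against the single untreated library, most genes called higher stood above it at 500 nM and near it at 1 nM. Of the 731 genes called higher, 642 had both 500 nM libraries above untreated cells, 390 of them by at least 2-fold, and 488 had both 1 nM libraries within 2-fold of untreated cells. In 76 genes, among them Tbx21 and Il12rb1, both 1 nM libraries were at least 2-fold below untreated cells. Of the 624 called lower, 552 had both 500 nM libraries below untreated cells and 452 both 1 nM libraries within 2-fold. The genes called higher and lower were chosen by their difference between doses, which favours 500 nM values beyond untreated cells. The same shares over all tested genes are not given here, so whether these counts exceed that background was not tested. By list, the antiviral genes had a median log2 ratio to untreated cells of 3.58 at 500 nM and 0.82 at 1 nM, amino acid supply 1.78 and 0.40, and the naive and memory genes -0.61 and 0.16. Untreated cells had no second library and no stated time in culture. Their larger share of B cell, myeloid, NK cell, dendritic cell and erythroid transcripts (above) touches each of these ratios.

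**Figure D5:**
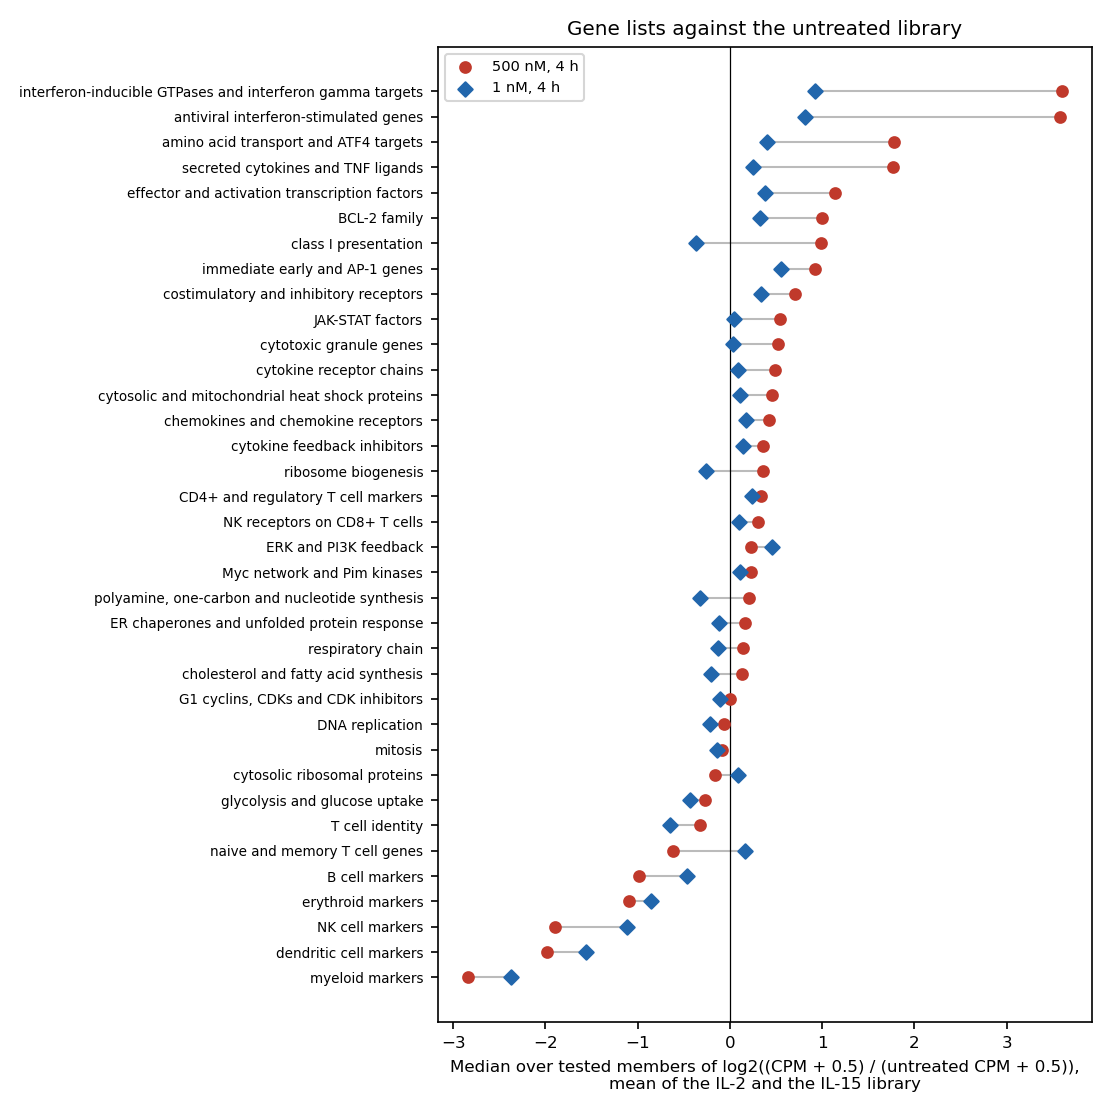
Median over the tested members of each list of the log2 ratio to untreated cells (CPM + 0.5, mean of the IL-2 and the IL-15 library), at 500 nM (red circles) and 1 nM (blue diamonds) after 4 h. The 2 interferon lists lie above 3 at 500 nM and below 1 at 1 nM, and the myeloid list is below -2 at both doses.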

How the data were processed

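Reads were processed with CASAVA 1.8 and Bowtie 0.12.4 on mm8, per the submitters' processing notes; how reads were counted, with what use of strand and of reads with several matches, is not stated there. The deposited tables give, per the file headers, read counts and RPKM for 24373 transcripts in each library, which the authors made without pooling libraries. Dividing each deposited count by the exon length and one library total gives back the deposited RPKM. Each of 20418 symbols took the counts of its transcript with the highest mean; 2673 symbols have several transcripts, and 43 have counts identical to another symbol's. Reads of overlapping genes cannot be told apart. RPKM was used only to compare levels between genes. Totals over these transcripts were 27158143 to 48799962 counts a library; 3 counts are 0.0845 to 0.1105 CPM in the 4 h libraries. Counting intervals are exact, at 95%.

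edgeR 4.0.16 in R 4.3.3 (TMM; genes kept at a minimum count of 10 and total of 15) fitted all 9 libraries by quasi-likelihood with a term for each dose and time and one for the cytokine, leaving 3 residual degrees of freedom. Contrasts were 500 nM minus 1 nM at 4 h, at 24 h, and their difference. Benjamini-Hochberg adjustment ran over all 13479 tested genes at 0.05, and a 4 h call also needed the same sign in both cytokine pairs. The ± values are the log2 difference divided by the square root of F, and log2 ratios use CPM + 0.5. Of the fits, only the edgeR fit of the 4 h contrast was tested on simulated data. The 24 h contrast, the difference between times and the alternatives were not. Members and lists were chosen with earlier results of these data known. Alternatives were DESeq2 1.42.0, limma-voom (limma 3.58.1), other scalings, filters, designs and thresholds, and leaving out each of the 8 treated libraries; those for the 24 h contrast were added after seeing the data.

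The text names the 15 largest rises and falls at 4 h among called genes with a mean of at least 50 counts and a standard symbol, up to 5 called members of each list with its defining members, examples of the 8 largest differences between times in each direction, and genes given in every case. Some items are not reported here. The abundant genes, and members outside this rule such as Thy1, Cd2, Cd3g and Ltb, were chosen after their values were seen. Promoters came from RefSeq (GRCm38.p6), whose coordinates are not those of mm8. Genes whose chromosome differed between the files and RefSeq (30) were left out of promoters and neighbours, and the largest rises that held a motif were printed. Columns of other samples left out numbered 0.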

Additional observations from a re-analysis of the deposited data

Results flagged for a closer look

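One kind of result met a rule for closer inspection: dose effects that differed between 4 h and 24 h by the test of the difference itself, with each value given as 4 h minus 24 h on the log2 scale. It was called for 1188 genes, of which 641 were above 0.

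Above 0 among interferon and stress genes were Slfn5 (3.81), Oas2 (2.36), Irf9 (1.73), Trib3 (1.86) and Atf3 (2.48), which were higher at 500 nM after 4 h and less so, or lower, after 24 h. Above 0 with a larger fall at 24 h were Il7r (2.08), Klf2 (1.94) and Ccl5 (3.09). Itih5 (7.39) was called higher at 4 h and was not called at 24 h.

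Below 0 among division genes were Rrm2 (-3.67), Mki67 (-3.61), Prc1 (-3.80), Tk1 (-3.55), Mcm7 (-2.46), Cdt1 (-1.87), Aspm (-6.26) and Hmmr (-6.07). Below 0 among metabolic and chaperone genes were Srm (-1.86), Pgk1 (-1.71), Tpi1 (-2.29), Fasn (-1.53) and Hspd1 (-1.91). The larger effects were at 24 h in all 13.

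The macrophage genes Lyz2 (6.14), C1qa (5.0), Mrc1 (8.83), Fabp4 (9.19) and Timd4 (8.63) were above 0, with their large falls at 24 h. Their part in the other differences between times was not tested.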

How the results depend on the processing

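No gene named and called at 4 h reversed its direction under the alternatives run. The balance of calls did: upper-quartile scaling gave 695 higher and 727 lower at 4 h. Of 1355 genes called at 4 h (731 higher, 624 lower), 689 passed an adjusted p under 0.01 (416 and 273), and 884 were at least 2-fold apart in both pairs without a test (481 and 403). With a single library left out the total ran over 567 to 1561, 345 to 881 of them higher and 222 to 712 lower. DESeq2 called 1839 and limma-voom 1241. The difference between times was called for 1792 genes with DESeq2, 844 of them below 0, and with a single library left out for 356 to 1102, 196 to 526 above 0 and 145 to 591 below, with more below than above without the IL-2 1 nM library of 4 h (526 above, 576 below) or of 24 h (480 and 591). The 24 h calls ran over 2086 to 4384, 1058 to 2197 higher and 1020 to 2188 lower. The cause of these changes was not tested, apart from the stricter thresholds and the samples left out.

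Of 176 genes named, 136 were called at 4 h, and 85 of those kept the call and direction in all 8 settings with a library left out. The doses were paired by cytokine through a term in the model. The 4 h libraries alone gave 1375 calls with that pairing and 1268 without it, and all 9 libraries 1568 without it. With 3 residual degrees of freedom, small differences cannot be told from the spread between libraries, and genes under about 50 counts a library rest on few reads.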
